A study of Mus musculus with 10 samples.

Results

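Cdk6 and 9 further genes of the G1 checkpoint were followed in whole kidneys of mice given quinolinic acid or vehicle. The 10 genes encode the kinases Cdk4 and Cdk6, the D-type cyclins Ccnd1, Ccnd2 and Ccnd3, the inhibitors Cdkn1b, Cdkn2c and Cdkn2a, the retinoblastoma protein Rb1 and the transcription factor E2f1. They were picked by name out of 27876 genes, with earlier results of this comparison known, and each was represented by its most abundant transcript among 49 measured for the group. Quinolinic acid arises when tryptophan is broken down and can activate NMDA-type glutamate receptors. Wild-type mice received it at 0.5 g/L in the drinking water for 14 days, while the other group received vehicle, and kidneys of 5 mice per group, described as representative, were sequenced under a single batch label. The labels give no strain, age or sex, and do not say whether kidney injury had been induced in these animals.

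A cell leaves G1 when D-type cyclins, which are made in response to growth signals, activate the kinases CDK4 and CDK6. These kinases phosphorylate the retinoblastoma protein, which otherwise holds E2F transcription factors in check, and released E2F switches on the genes of DNA replication. INK4 proteins (encoded by Cdkn2c and, in part, Cdkn2a) bind the kinases directly, whereas the CIP/KIP protein p27 (Cdkn1b) acts on cyclin-kinase complexes. In the adult kidney most tubule cells rest outside the cycle and can re-enter it during repair after injury.

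All values rest on the authors' deposited table, the result of edgeR's likelihood-ratio test of vehicle versus quinolinic acid for 85107 transcripts. It gives a log2 fold change, a mean level in CPM (counts scaled to library size), a p-value and an adjusted p, and no values of single libraries. Depth and the spread between mice are therefore unknown, and the errors below are approximate 95% intervals, derived for each transcript from its likelihood ratio and fold change. The header does not name the group in the numerator, so a positive sign may stand for more or for less RNA after quinolinic acid. All 12 tubule markers looked at lay between 6.20 and 16082 CPM in the authors' deposited table, with a median of 150 CPM. Liver markers had a median of 3.37 CPM but reached 60.9 CPM, so that range alone does not settle the tissue label. In whole tissue, fewer cells of a type and less RNA per cell cannot be told apart.

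None of the 10 genes passed the authors' likelihood-ratio test at an adjusted p under 0.05, a level that 0.0215% of all genes reached (6 of 27876). At an unadjusted p under 0.05 there were 3 members with a positive sign (Cdk4, Ccnd3 and Cdkn2c) and 1 with a negative sign (Cdk6), beside 3.58% and 1.54% of all genes. The sign was positive for 8 of the 10 members and for 57.9% of all genes. Of the 27876 genes, 16139 were positive and 9342 negative, and the rest had no sign. The median log2 fold change was 0.24 over the members and 0.04 over all genes. Because the members were chosen with this comparison in view, these counts describe them and test nothing. A mean level of at least 1 CPM was reached by 9 members, all but Cdkn2a, and of these 7 had a positive sign, as had 71.8% of the 13115 genes at that level.

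Both kinases have a window in the RefSeq promoter table (GRCm38.p6), and the 250 bases before each start are shown because Cdk4 and Cdk6 had opposite signs. Capitals mark the E-box CACGTG, a palindrome and so the same on both strands, which is the site bound by MYC and related factors. The Cdk4 window is chr10:127063285-127063534 and the Cdk6 window chr5:3343643-3343892, both on the plus strand.
Cdk4 promoter: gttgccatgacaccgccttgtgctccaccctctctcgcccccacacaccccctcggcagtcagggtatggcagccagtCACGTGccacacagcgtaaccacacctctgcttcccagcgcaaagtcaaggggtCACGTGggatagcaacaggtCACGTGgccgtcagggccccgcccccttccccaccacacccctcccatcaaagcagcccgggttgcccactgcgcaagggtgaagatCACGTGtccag
Cdk6 promoter: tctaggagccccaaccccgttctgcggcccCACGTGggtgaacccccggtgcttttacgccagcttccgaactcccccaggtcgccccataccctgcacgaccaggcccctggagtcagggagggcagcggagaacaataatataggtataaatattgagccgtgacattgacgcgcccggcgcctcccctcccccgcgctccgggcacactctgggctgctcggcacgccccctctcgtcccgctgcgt
The Cdk4 window holds 4 E-boxes, which begin 172, 118, 98 and 11 bases before the start. The Cdk6 window holds 1, which begins 220 bases before the start. Of 32851 windows of this length, 6.02% hold at least 1 E-box and 7 windows (0.0213%) hold 4 or more. A match is a description of the letters, not evidence that a factor binds there. No binding was measured in this series.

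Cdk6 (ENSMUST00000165117, chromosome 5, 3343893 to 3531008, mm10) had the largest negative value among the members, where Ccnd2 was the only other one. In the authors' deposited table its log2 fold change was -0.58 (approximate 95% interval -0.92 to -0.24; p = 0.000881, adjusted p = 0.392), a 1.49-fold difference at a mean level of 1.78 CPM. Among 3702 genes of at least 1 CPM with a negative sign it stood at rank 4 by p, which is the reason the group was looked at. The second Cdk6 transcript (ENSMUST00000042410), which has the same coding length of 978 bases and a shorter 3' end, stood at -0.50 on the same scale (-0.82 to -0.19; p = 0.00167; mean level 1.04 CPM) in the authors' deposited table. All of its 2470 nt lie inside the longer transcript of 11525 nt, so the 2 values share reads and are not independent.

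Cdk4 (ENSMUST00000006911, chromosome 10, 127063534 to 127067920), the other kinase of the D-type cyclins, carried the opposite sign. The authors' deposited table gives it a log2 fold change of 0.26 (0.03 to 0.49; p = 0.0248, adjusted p = 0.792), a 1.20-fold difference, and a mean level of 37.0 CPM. All 9 Cdk4 transcripts in the authors' deposited table had a positive sign, with log2 fold changes from 0.23 to 0.30. They share exons and reads, so these are not separate measurements. The approximate intervals of the 2 kinases did not overlap, but the difference between them was not tested, since that needs values per library. Cdk6 was the reason the group was looked at, so this gap follows largely from that choice. Exons of Tspan31 on the opposite strand cover 641 of the 2053 bases of the most abundant Cdk4 transcript. The sources used here do not say whether the counting used strand, so reads of the 2 genes cannot be told apart. Tspan31 itself stood at a log2 fold change of 0.15 and a mean level of 64.1 CPM in the authors' deposited table.

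**Figure D1:**
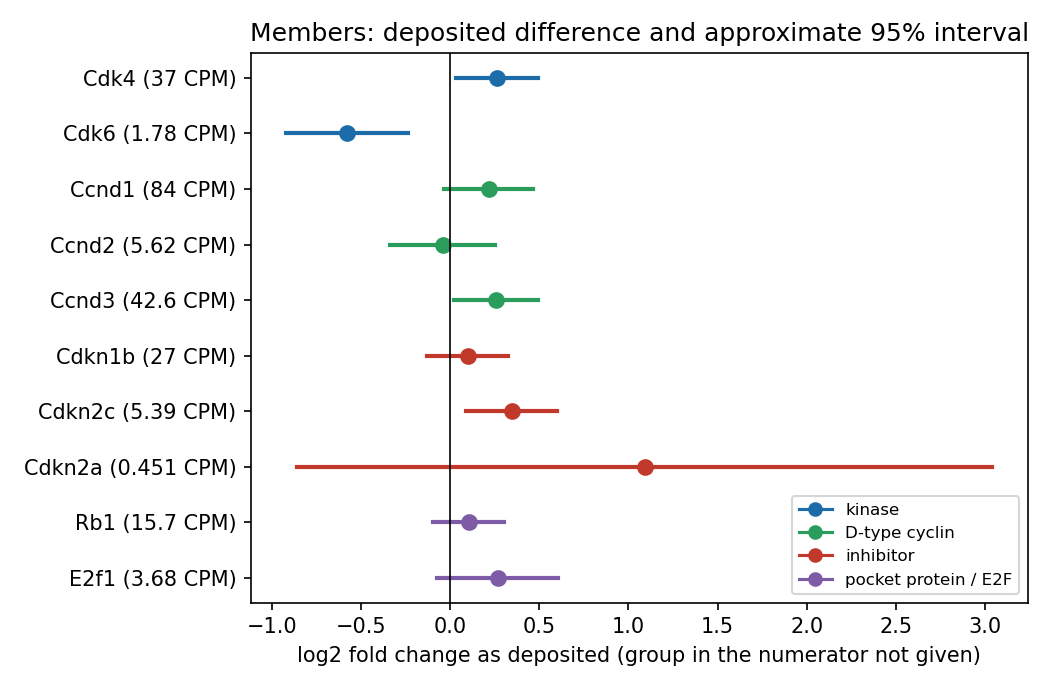
Log2 fold change as deposited (x axis) for the 10 members (y axis, with the mean level in CPM), where points are deposited values, lines are approximate 95% intervals and colours give the role. Cdk6 at -0.58 lies apart on the negative side, Ccnd2 is near 0, and the interval of Cdkn2a, from -0.86 to 3.04, is the widest of the 10.

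The D-type cyclins did not share a sign. Ccnd3 (ENSMUST00000183044, chromosome 17, 47505119 to 47599683) is listed in the authors' deposited table with a log2 fold change of 0.26 (0.02 to 0.49; p = 0.0328, adjusted p = 0.794) and a mean level of 42.6 CPM. Its 21 transcripts were all positive in the authors' deposited table, from 0.05 to 0.36, and 5 of them had an unadjusted p under 0.05. Transcripts of 1 gene share exons and reads, so these are not separate measurements. Ccnd1 (ENSMUST00000093962, chromosome 7, 144929931 to 144939869), the cyclin most often induced by growth factors, differed by 0.21 on the log2 scale (-0.04 to 0.46; p = 0.0934) in the authors' deposited table, at a mean level of 84.0 CPM. A short Ccnd1 transcript that retains an intron stood at -0.02 and 3.10 CPM in the authors' deposited table. Ccnd2 (ENSMUST00000000188, chromosome 6, 127125162 to 127151060) had a single transcript, listed in the authors' deposited table at a log2 fold change of -0.04 (-0.34 to 0.25; p = 0.771) and a mean level of 5.62 CPM. Opposite-strand exons overlap 1100 bases of the Ccnd1 transcript (LTO1, 0.02 at 7.99 CPM), 372 bases of that of Ccnd2 (the gene model Gm43126, with no matched row) and 353 bases of that of Ccnd3 (Bysl, 0.00 at 8.05 CPM), with log2 fold changes from the authors' deposited table.

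The inhibitors were all positive in sign and differed widely in precision. Cdkn2c (ENSMUST00000097921, chromosome 4, 109660876 to 109667189), which encodes the INK4 protein p18, had the smallest p of the positive members. Per the authors' deposited table its log2 fold change was 0.34 (0.09 to 0.60; p = 0.00825, adjusted p = 0.692), a 1.27-fold difference at a mean level of 5.39 CPM. Its second transcript, from a nearer start site, stood at 0.35 and 5.14 CPM in the authors' deposited table. Cdkn1b (ENSMUST00000067327, chromosome 6, 134920401 to 134925513), the gene of p27, differed by 0.10 on the log2 scale (-0.13 to 0.33; p = 0.408) in the authors' deposited table, at a mean level of 27.0 CPM. Its second transcript was at 0.12 and 23.8 CPM in the authors' deposited table.

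Cdkn2a makes a pair of unrelated proteins from separate first exons that are read in different frames of shared exons. The transcript that starts upstream encodes ARF, which stabilises p53, and the one that starts downstream encodes the INK4 protein p16, which binds CDK4 and CDK6. The 250 bases before each start are shown because the 2 transcripts lay further apart in log2 fold change than any 2 transcripts of another member. Both windows are on the minus strand of GRCm38.p6, at chr4:89294620-89294869 for ARF and chr4:89282193-89282442 for p16. Capitals mark matches to the E2F site, searched on both strands as TTTCCCGC, TTTCGCGC, TTTGCCGC or TTTGGCGC.
Cdkn2a promoter, ARF start: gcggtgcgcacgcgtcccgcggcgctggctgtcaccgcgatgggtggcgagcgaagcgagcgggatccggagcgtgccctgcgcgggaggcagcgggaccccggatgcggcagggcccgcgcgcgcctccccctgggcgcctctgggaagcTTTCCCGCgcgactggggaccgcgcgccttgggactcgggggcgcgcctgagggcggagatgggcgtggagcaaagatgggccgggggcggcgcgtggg
Cdkn2a promoter, p16 start: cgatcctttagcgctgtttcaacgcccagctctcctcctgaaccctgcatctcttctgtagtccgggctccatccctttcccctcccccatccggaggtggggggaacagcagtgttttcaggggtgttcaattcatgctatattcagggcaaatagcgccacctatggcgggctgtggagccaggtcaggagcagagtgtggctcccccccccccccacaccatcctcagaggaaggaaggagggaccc
The RefSeq start of ARF lies 34 bases inside the vM21 transcript. Its window holds 1 match, which begins 99 bases before that start, and the p16 window holds none of these letters. Of all 32851 windows, 1.86% hold a match. The windows of Cdk4 and Cdk6 hold no match to these 4 sequences.

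The ARF transcript (ENSMUST00000107131, chromosome 4, 89274541 to 89294653) is given in the authors' deposited table at a log2 fold change of 1.09 (-0.86 to 3.04; p = 0.273, adjusted p = 0.799) and a mean level of 0.451 CPM. For the p16 transcript (ENSMUST00000060501, chromosome 4, 89274471 to 89282192) the authors' deposited table lists 3.16 on the log2 scale (0.75 to 5.58; p = 0.0103, adjusted p = 0.710) and a mean level of 0.395 CPM. The transcripts share 575 exonic bases, 64.2% of the ARF transcript and 67.5% of the p16 transcript, so most of their length draws on the same reads. Their intervals overlapped, and the difference between them was not tested. At these levels the normal approximation behind the intervals is poor, and a few reads in 1 library can set such a value, which cannot be examined without values per library.

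Rb1 and E2f1, the target of the kinases and the factor it restrains, were both positive and neither had a p under 0.05. Rb1 (ENSMUST00000022701, chromosome 14, 73195502 to 73325822, 27 exons) differed by 0.10 on the log2 scale (-0.09 to 0.30; p = 0.308) in the authors' deposited table, at a mean level of 15.7 CPM. Of its 6 transcripts, 1 lay more than 0.5 away: a noncoding transcript of 408 nt at 0.0920 CPM with a log2 fold change of -1.59 and p = 0.0287 in the authors' deposited table. E2f1 (ENSMUST00000103145, chromosome 2, 154559407 to 154569892) differed by 0.27 (-0.07 to 0.61; p = 0.126) on that scale in the authors' deposited table, at a mean level of 3.68 CPM.

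Levels were compared per kilobase of transcript. From the authors' deposited mean CPM, Ccnd1 was highest at 22.5 CPM per kb, followed by Ccnd3 at 20.6 and Cdk4 at 18.0 CPM per kb. Cdkn1b stood at 5.94, Rb1 at 3.37, Cdkn2c at 2.18 and E2f1 at 1.35 CPM per kb. Ccnd2 at 0.888, Cdkn2a at 0.503 and Cdk6 at 0.155 CPM per kb were lowest. Measured on its shorter transcript Cdk6 reached 0.421 CPM per kb, still the lowest of the 10. Without a spread over libraries it cannot be said which neighbours in this order differ. The kinase and the cyclins of highest level were thus Cdk4, Ccnd1 and Ccnd3, whose log2 fold changes lay between 0.21 and 0.26. Cdk6 was the kinase and Ccnd2 the D-type cyclin of lower level.

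**Figure D2:**
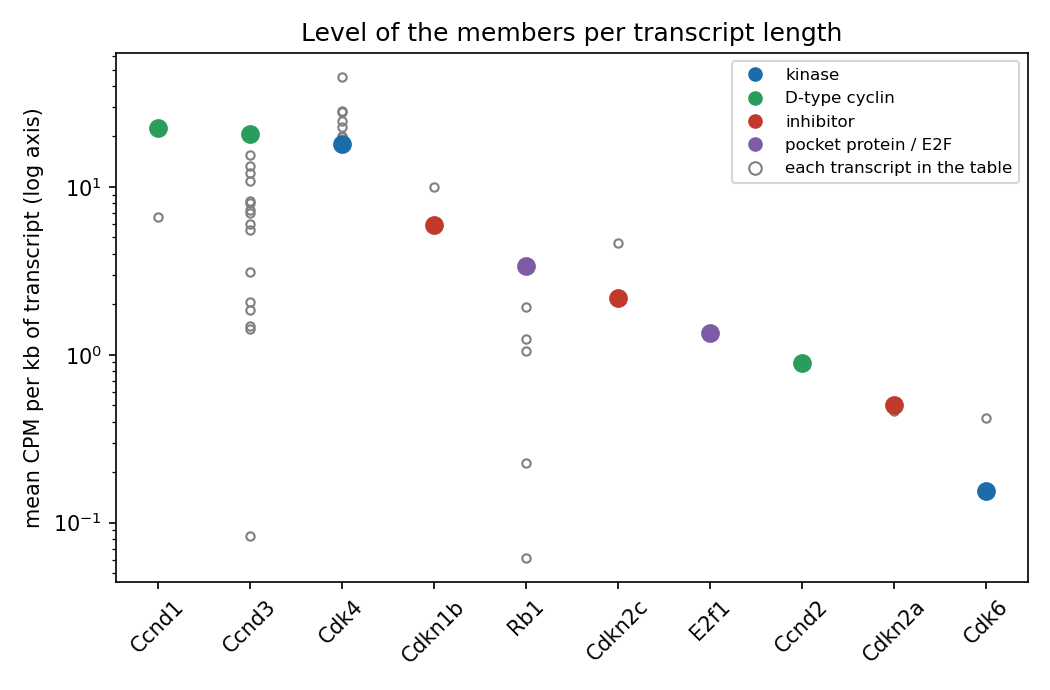
Mean level per kilobase of transcript (y axis, log scale, CPM per kb) for the 10 members in falling order, where filled points are the most abundant transcript of each gene and open points every transcript in the table. Ccnd1, Ccnd3 and Cdk4 stand near 20 CPM per kb, from 18.0 to 22.5, and Cdk6 is lowest at 0.155.

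Fold changes in this table follow transcript length, and the members span much of that range. The median log2 fold change over genes of at least 1 CPM was 0.08, and 68.6% of the 1638 such genes of 6000 nt or more had a negative sign. The Cdk6 transcript, at 11525 nt, stood 142nd by length among 13115 genes, and Ccnd2, at 6330 nt, was the next longest member. The fitted trend on length and level was -0.05 for Cdk6, and with it removed the log2 fold change of Cdk6 was -0.53. Its adjusted p was then 0.587, by a normal approximation over genes of at least 0.1 CPM. For Cdk4 the trend was 0.13, and its value without the trend was also 0.13, against the deposited 0.26. Ccnd3 likewise stood at 0.13 and Cdkn2c at 0.24 with the trend removed. None of these 3 then had an unadjusted p under 0.05 by the same approximation. Cdk6 still had one, but its small p was the reason the group was looked at. That it kept a small p therefore describes Cdk6 and tests nothing. The median over the 10 members was then 0.13, and 8 members kept a positive value, among them Cdkn2a, which lay below 1 CPM. Of the 13115 genes of at least 1 CPM, 6513 were positive without the trend, and their median was -0.0008.

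**Figure D3:**
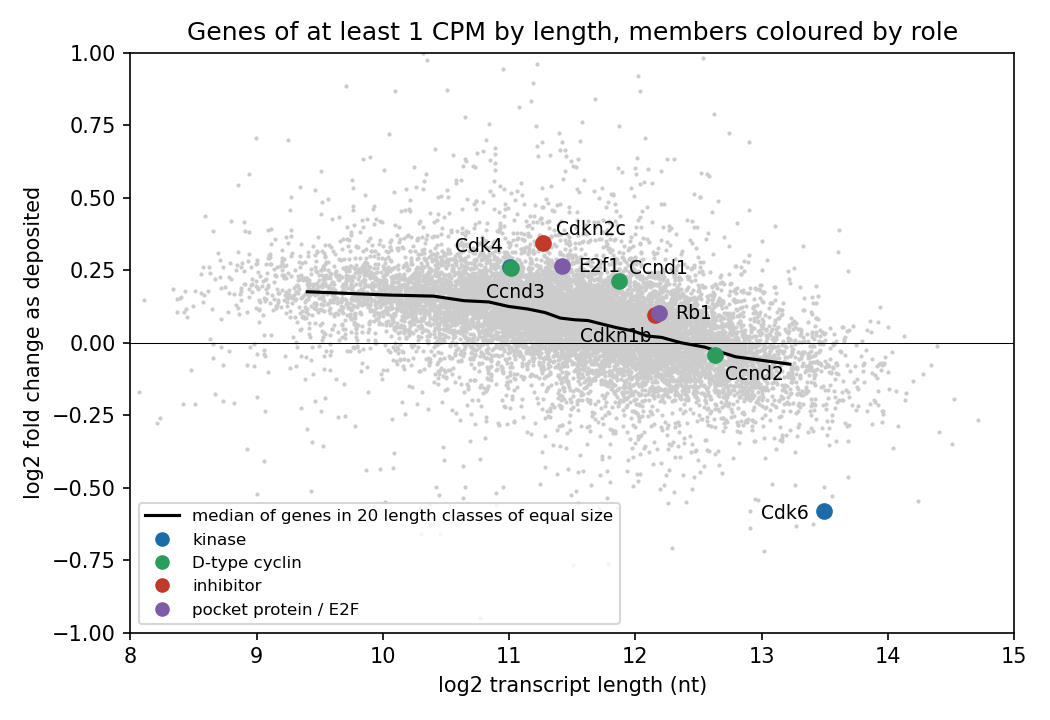
Log2 fold change as deposited (y axis) against log2 transcript length in nt (x axis) for genes of at least 1 CPM (grey), with the median by length class in black and 9 members coloured by role; 92 of 13115 genes lie outside the axes. Cdk6 lies at -0.58, where the fitted trend is -0.05, Ccnd2 lies near the median line, and Cdk4, hidden behind Ccnd3, lies above it.

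Among the rest of the G1/S machinery log2 fold changes ran from -0.19 to 0.56. Among the members they ran from -0.58 to 1.09. The lower end is Cdk6, the reason the group was looked at, and the upper end is Cdkn2a at 0.451 CPM. The remaining members ran from -0.04 to 0.34. The upper end of the other regulators, 0.56, is Cdkn1c alone. The next highest of them was Cks1b at 0.29, below the member Cdkn2c at 0.34. Of 28 other regulators, none passed the authors' likelihood-ratio test, and at an unadjusted p under 0.05 there was 1, Cdkn1c, with a positive sign, a share of the list close to the 3.58% of all genes with a positive sign and such a p. Positive signs numbered 23 and negative signs 5 in the authors' deposited table (82.1% positive, beside 71.8% of genes of at least 1 CPM). The median log2 fold change was 0.09. With the length and level trend removed, 14 of the 28 were positive and the median was 0.01. Cdkn1c, the imprinted gene of the CIP/KIP inhibitor p57, is listed in the authors' deposited table at a log2 fold change of 0.56 (0.22 to 0.89; p = 0.00108, adjusted p = 0.431) and a mean level of 9.88 CPM. With the trend removed its value was 0.43. Podocytes are a known site of p57, and the podocyte markers Nphs1 and Podxl had log2 fold changes of 0.31 and 0.10 in the authors' deposited table, both with p above 0.05. The part of podocyte number in the Cdkn1c value was not tested.

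The next smallest p on the positive side belonged to Rbl1, the pocket protein p107 (0.21), Ccnh, the cyclin of the CDK-activating kinase (0.15), and Cdk2, the partner of cyclin E (0.19), on the log2 scale of the authors' deposited table. On the negative side were E2f2 (-0.19), Ambra1, an adaptor for the degradation of D-type cyclins (-0.07), Tfdp1, the DNA-binding partner of E2F (-0.04), and E2f7, a repressor of E2F targets (-0.05), in the authors' deposited table. Their p-values ran from 0.131 to 0.897. Cdkn1a, the gene of the p53-induced inhibitor p21, stood at a log2 fold change of 0.01 (10.7 CPM) and Cdkn2b, the gene of p15 next to Cdkn2a, at 0.02 (1.79 CPM) in the authors' deposited table. This pair was chosen once the values were known.

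Genes switched on by E2F for replication were positive in sign in 96% of cases, beside 71.8% of genes of at least 1 CPM. Signs in the authors' deposited table were positive for 24 of 25 such genes and negative for 1. Their median log2 fold change was 0.21, and 22 of the 25 reached 1 CPM. None passed the authors' likelihood-ratio test, and 1, Cdc45, which belongs to the replicative helicase, had an unadjusted p under 0.05 (0.36, 0.02 to 0.70, p = 0.0402 in the authors' deposited table). This share of the list is likewise close to 3.58%. The helicase subunit genes Mcm3 (0.38) and Mcm4 (0.23) and Pcna (0.19), the gene of the sliding clamp, came next by p in the authors' deposited table. The row that stands for Mcm3 retains an intron. The 1 negative value was that of Cdc6, a loader of the helicase, at -0.09 (-0.67 to 0.48) and 0.629 CPM in the authors' deposited table. The row that stands for Cdc6 is annotated for nonsense-mediated decay, and the coding transcript of Cdc6 stood at -0.12. With the length and level trend removed, 22 of the 25 stayed positive and the median was 0.08. Without the trend, 6513 of the 13115 genes of at least 1 CPM were positive. The list was chosen with earlier results known, so these counts describe it and test nothing.

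Among genes of mitosis most signs were negative. Of 7, 5 had a negative sign, beside 3702 of the 13115 genes of at least 1 CPM. Among the 5 were Mki67 (-0.17), Top2a (-0.14) and Cdk1 (-0.01), the last of them near 0. Aurkb (0.40) and Ccnb1 (0.37) were positive in the authors' deposited table. A level of 1 CPM was reached by 5 of the 7, all but Bub1 (negative, 0.772 CPM) and Ccnb1 (0.884 CPM). The median log2 fold change of the 7 was -0.14, and none had an unadjusted p under 0.05. The difference between the replication and the mitosis genes was not tested.

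**Figure D4:**
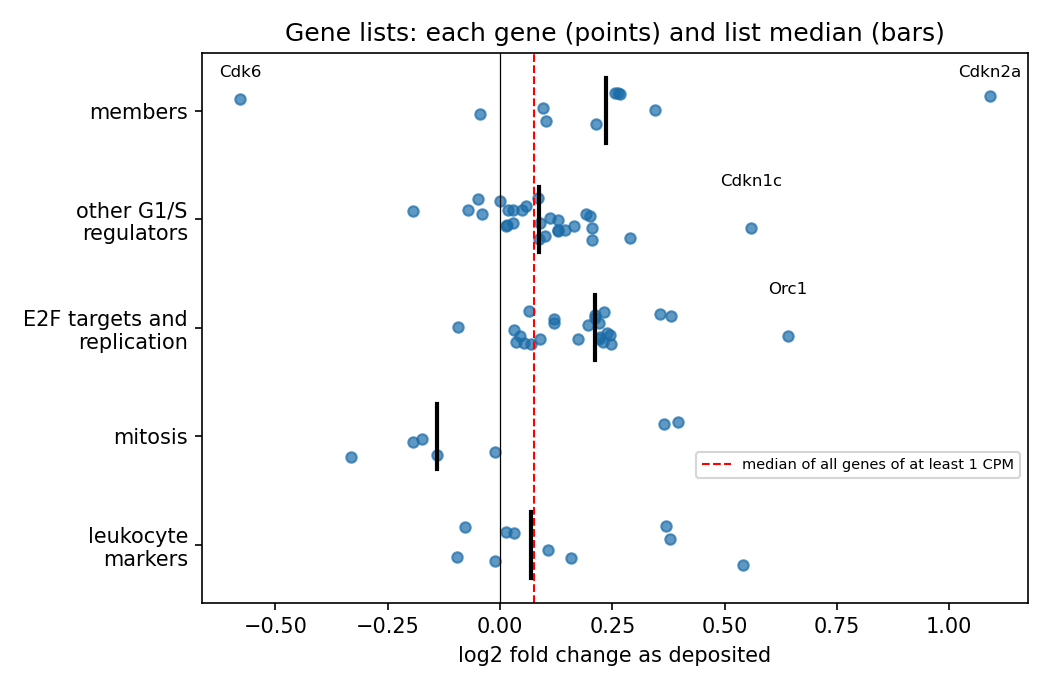
Log2 fold change as deposited (x axis) for each gene of the members and 4 lists (y axis), where points are genes, black bars list medians and the dashed line the median of all genes of at least 1 CPM, 0.08. The medians are 0.24 for the members, 0.09 for the other G1/S regulators, 0.21 for E2F targets and replication genes, -0.14 for mitosis genes and 0.07 for leukocyte markers.

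Cdk6 is abundant in blood-forming and lymphoid cells, so markers of leukocytes were read beside it. Of 10 markers, 7 were positive and 3 negative in the authors' deposited table, at levels from 0.171 to 162 CPM and a median log2 fold change of 0.07. Of genes of at least 1 CPM, a level that 6 of the 10 markers reached, 71.8% were positive. The pan-leukocyte gene Ptprc stood at 0.11 and the T cell genes Cd3e and Cd3g at 0.54 and -0.10 in the authors' deposited table, and none of the 10 had an unadjusted p under 0.05. Of 5 endothelial markers all were positive (median 0.11), and of 5 stromal markers 2 were positive and 3 negative (median -0.02). Markers of fat and of liver were positive in 5 of 5 and 5 of 5 cases, with medians of 3.77 and 1.20. Of these, 5 of 5 fat and 4 of 5 liver markers had an unadjusted p under 0.05 in the authors' deposited table, and 1 fat and 3 liver markers reached 1 CPM. Of all genes, 3.58% had a positive sign and such a p. No fat or liver marker passed the authors' likelihood-ratio test at an adjusted p under 0.05. Levels of these lists in each group cannot be given without values per library, and their part in the members' values was not tested.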

How the data were processed

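RNA was sequenced from whole kidneys of 10 mice, 5 per group, grouped by the treatment in the sample labels. The submitters' processing notes name FastQC 0.11.2, STAR 2.5.3a, Subread 1.4.6 with its featureCounts, edgeR and build mm10. Annotation release, strand setting and depths are not given in the sources used here. The authors deposited, per the file headers, 5 values for each transcript: the log2 fold change, the mean level as log2 CPM, a likelihood-ratio score (1 degree of freedom), its p-value and an adjusted p-value. Recomputing the last 2 from the score, by the chi-square tail and the Benjamini-Hochberg method over 85107 transcripts, gave the same values. A test on counts of each library had been planned for the case that the table held them, and the authors' test took its place.

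GENCODE vM21 (GRCm38) holds 83446 of the transcripts (98%), matched by identifier without version, and the most abundant one stood for its gene. An approximate standard error was taken from the size of the log2 fold change over the root of the likelihood ratio. The trend of fold change on length and level was fitted by loess (span 0.5) and subtracted, over genes of at least 0.1 CPM, and a normal approximation then gave p and Benjamini-Hochberg adjusted values. The trend fit on length and level was tested on simulated data with a known straight-line trend and known errors. The approximate standard error and the fit with GC were not part of that test. All members were named, and of the G1/S regulators and the replication genes the 4 with the smallest p of each sign. The members and lists were chosen with earlier results of these data known. Promoter sequences are RefSeq's, with windows for 7 of the 10 members. Python 3.11.15, pandas 2.3.3, scipy 1.17.1, matplotlib 3.10.9 and R 4.3.3 were used. Alternatives were other representative transcripts, trend removal, other sets for the adjustment and a threshold of 0.1. The value of 1 marker gene is not reported here.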

Additional observations from a re-analysis of the deposited data

How the results depend on the processing

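Without values per library, the depth behind each value is unknown. Leaving out replicates, DESeq2, other size factors and count filters were not run. No paired analysis was possible because the deposited values are a finished comparison without values per library. No member, other G1/S regulator or replication gene passed under any alternative tried: the coding transcript of each gene, the length and level trend removed, adjustment over 1 transcript per gene or over genes of at least 1 CPM, a threshold of 0.1, and the length, level and GC trend removed, which was added after seeing the data. The adjusted p of Cdk6 ranged from 0.343 to 0.680 over these. The members' median log2 fold change ranged from 0.13 to 0.24. The sign of Rb1 changed with the median over its transcripts (-0.01) and that of Ccnd2 with the GC trend removed (0.02). No other member changed sign.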

Other observations

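The kinases named Cdk and the cyclins, gathered by symbol after the data had been seen, place the members among their relatives. Of 18 Cdk genes of at least 1 CPM, Cdk6 had the lowest log2 fold change (-0.58) and Cdk12, a kinase of transcription elongation, the next (-0.26, p = 0.0672) in the authors' deposited table. The highest in the authors' deposited table was that of Cdk18, at 0.36 (approximate 95% interval 0.14 to 0.58; p = 0.00147, adjusted p = 0.476) and a mean level of 17.2 CPM. Its value was 0.33 with the length and level trend removed. Cdk4 came second highest. Cdk6 was the reason the group was looked at, so its lowest place among the Cdk genes follows largely from that choice. That place therefore describes Cdk6 and tests nothing. Of 18 cyclin genes of at least 1 CPM, Ccnd3 (0.26) and Ccnd1 (0.21) had the highest log2 fold changes and Ccnj (-0.10) and Ccnd2 (-0.04) the lowest in the authors' deposited table. With the length and level trend removed, Ccnd2 stood at -0.03 and was no longer among the lowest 2, which were Ccnj (-0.15) and Ccnk (-0.12).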
